A study of Mus musculus with 16 samples.

Results

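The 6 genes described here encode the machinery that tags newly made lysosomal enzymes with mannose 6-phosphate and carries them to the lysosome: Gnptg, Gnptab, Nagpa, M6pr, Igf2r and Sort1. They are 6 of the 25006 Ensembl genes counted in ribosome-bound mRNA of dopaminergic neurons of the mouse substantia nigra, and 6 of 6 were found by symbol and passed edgeR's filter on low counts. The set was chosen on the difference between genotypes, so that difference is given below as a description. Gnptg had lower counts in MCU-KO mice, without an adjusted p under 0.05 in edgeR. The other members were not found to be lower, but Igf2r and Nagpa were measured too loosely to exclude a fall of that size. How many members each tool called is printed beside the share of all genes, and nothing is read from it. The libraries, one per mouse, came from 8 controls of genotype DAT-Cre+/- and from 8 MCU-KO animals that carried MCU fl/fl together with DAT-Cre+/-, so that Cre under the dopamine transporter promoter deleted the floxed gene of the mitochondrial Ca2+ uniporter. Tissue was taken at postnatal day 45 and 30 days after injection of the vector. Both genotypes carried 1 copy of DAT-Cre and received the same adeno-associated virus in the substantia nigra, which expresses a tagged ribosomal protein (RiboTag) only where Cre is present. The controls were bred from DAT-Cre and C57/BL6 mice and were not littermates carrying the floxed allele, so the deletion and the rest of the breeding background cannot be told apart.

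Lysosomal hydrolases are synthesized in the endoplasmic reticulum and receive their tag in the Golgi. An N-acetylglucosamine-1-phosphotransferase, whose catalytic alpha and beta subunits come from the Gnptab precursor and whose gamma subunit comes from Gnptg, adds a covered phosphate to mannose, and the uncovering enzyme Nagpa then exposes mannose 6-phosphate. The cation-dependent receptor M6pr and the large cation-independent receptor Igf2r, which also clears insulin-like growth factor 2, bind the tag and pass the enzymes to endosomes, whereas sortilin (Sort1) carries a further set of cargo that does not need it. Loss of the phosphotransferase causes mucolipidosis, in which untagged enzymes are secreted.

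The members lie on 5 chromosomes of GRCm38, the build that mm10 names. Gnptg (chr17:25233331-25240124, minus strand) and Igf2r (chr17:12682406-12769664, minus strand) share a chromosome but start 12.5 Mb apart. Gnptab lies at chr10:88379132-88447329, Nagpa at chr16:5195289-5204012, M6pr at chr6:122308720-122317680 and Sort1 at chr3:108284082-108361511. The RefSeq promoter table (GRCm38.p6) lists 4 of the 6 members, without M6pr and Sort1. For the 3 of these with CACGTG, the core that the lysosomal regulators TFEB and TFE3 are known to bind, the last 60 bases before the RefSeq start of transcription are shown with that motif in capitals. The gene coordinates above are those of GENCODE, whose start differs from the RefSeq start by 8 bases for Gnptg, 42 for Igf2r, 136 for Gnptab and 0 for Nagpa.
Gnptg (chr17:25240117-25240176, minus strand): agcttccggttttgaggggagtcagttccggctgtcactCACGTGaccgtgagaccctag
Nagpa (chr16:5204013-5204072, minus strand): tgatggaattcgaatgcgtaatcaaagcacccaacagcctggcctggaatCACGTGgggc
Igf2r (chr17:12769707-12769766, minus strand): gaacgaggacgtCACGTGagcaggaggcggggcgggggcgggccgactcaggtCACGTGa

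CACGTG reads the same on both strands. In the whole windows of 300 bases (250 before and 50 after the start), it occurred once in Gnptg, beginning 21 bases before the start, in 2 places in Nagpa and Igf2r, and nowhere in Gnptab. Of the 27025 genes in the table, 8.09% had it in at least 1 window. Among the genes that encode tagged enzymes, 12 of the 42 with a listed promoter (28.6%) had CACGTG, as did 6 of 34 coat and retrieval genes (17.6%) and 4 of 23 other sorting receptors and untagged cargo (17.4%).

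Control libraries held between 18999107 and 22016362 counts and MCU-KO libraries between 14129527 and 20582204, so that 3 counts, the smallest amount taken as detectable, correspond to 0.136 to 0.212 CPM (counts scaled to the total of the library). This limit covers counting error only. Values named normalized counts were scaled with the size factors of DESeq2. Mcu, the targeted gene, had 454 ± 274 normalized counts (SD, n = 8) in control and 200 ± 139 (SD, n = 8) in MCU-KO, and the genotypes overlapped. These counts were taken over the whole gene. By quantitative PCR of RiboTag mRNA, the study found less Mcu in MCU-KO mice, and it measured reduced mitochondrial Ca2+ uptake. Dopaminergic markers such as the tyrosine hydroxylase gene Th were abundant in the libraries, 11 of 11 being detected in every mouse. They summed to between 14957 and 18703 CPM in control and between 13022 and 20831 CPM in MCU-KO. Of these 11 markers, 4 had a positive log2 fold change and 0 had an adjusted p under 0.05 (edgeR). The 22 markers of astrocytes, oligodendrocytes, their precursors and microglia summed to between 3303 and 6579 CPM in control and between 3983 and 7863 CPM in MCU-KO. Of these glial markers, 19 of 22 had a positive log2 fold change, 0 had an adjusted p under 0.05 (edgeR), and 0 were at zero in all mice. The immunoprecipitate thus also held glial mRNA, and fewer ribosomes carrying an mRNA cannot be told apart from fewer cells of a type.

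In control mice, the gamma subunit gene was the most abundant member per length and the uncovering enzyme and the large receptor were the least. Levels are compared as log2 of normalized counts plus 1 per kb of exon. On this scale Gnptg stood at 10.33 ± 0.16 (SD, n = 8), M6pr at 9.08 ± 0.27 (SD, n = 8), Sort1 at 7.58 ± 0.19 (SD, n = 8) and Gnptab at 6.89 ± 0.54 (SD, n = 8). Igf2r followed at 3.96 ± 2.15 (SD, n = 8) and Nagpa at 2.71 ± 4.02 (SD, n = 8). By mean normalized counts per kb, Gnptg exceeded 91.8% of the 12390 genes tested, M6pr 82.8%, Sort1 63.8%, Gnptab 54.0%, Nagpa 30.7% and Igf2r 20.6%. Igf2r and Nagpa thus changed places between the log and the linear mean.

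**Figure D1:**
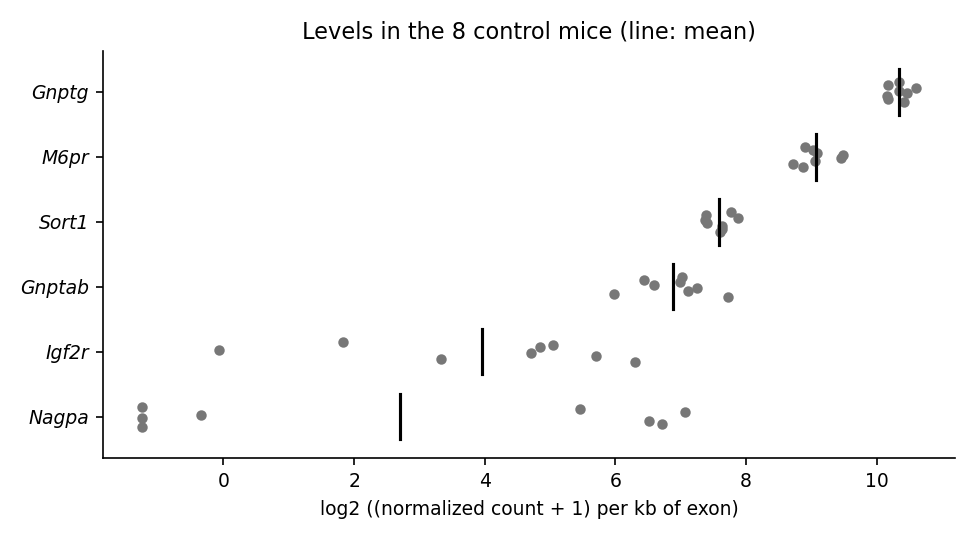
Levels of the 6 genes in the 8 control mice, on the horizontal axis as log2 of normalized counts plus 1 per kb of exon, with one point per mouse and a line at the mean. Gnptg, M6pr, Sort1 and Gnptab have means that step down from 10.33 to 6.89, with some overlap between Sort1 and Gnptab, whereas the points of Igf2r and Nagpa are spread widely and overlap.

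Adjacent genes in this order were compared within mice by an exact sign-flip permutation test (two-sided, adjusted over the 5 neighboring pairs). For this test, 8 mice allow a smallest p of 0.0078. The order came from the means of the same control mice, so the direction of each step was set by the values tested. Gnptg exceeded M6pr in 8 of 8 control mice, with a mean log2 ratio of 1.26 ± 0.26 (SD, n = 8; exact p = 0.0078, adjusted 0.013). M6pr exceeded Sort1 in 8 of 8 mice by 1.49 ± 0.40 (SD, n = 8; exact p = 0.0078, adjusted 0.013). Sort1 exceeded Gnptab in 7 of 8 mice by 0.70 ± 0.54 (SD, n = 8; exact p = 0.0156, adjusted 0.0195). Gnptab exceeded Igf2r in 8 of 8 mice by 2.93 ± 1.96 (SD, n = 8; exact p = 0.0078, adjusted 0.013). Igf2r and Nagpa were not separated, with Igf2r higher in 4 of 8 mice (exact p = 0.422). The same 4 steps passed the test in the MCU-KO mice, where the step from Gnptg to M6pr was 0.48.

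The phosphotransferase subunits were therefore measured at unequal mRNA levels. In control mice the gamma subunit gene exceeded the gene of the catalytic subunits per kb by a log2 ratio of 3.45 ± 0.47 (SD, n = 8), between 2.70 and 4.20 in single mice. In MCU-KO mice this ratio was 2.59 ± 0.86 (SD, n = 8), between 1.42 and 3.97. Of the receptors, the small M6pr exceeded the large Igf2r per kb in 8 of 8 control mice, the log2 ratio being 5.11 ± 2.25 (SD, n = 8). That ratio was 4.59 ± 0.95 (SD, n = 8) in MCU-KO mice.

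Lengths bear on these levels because the annotation of Gnptg overlaps that of its convergent neighbor. The last exons of Unkl, a gene on the opposite strand, cover 1113 bases of Gnptg exon, or 49.5% of its 2249 exon bases. Whether reads were counted by strand is not given in the sources used here, and without strand, reads from that stretch cannot be assigned to either gene. Unkl itself had only 39.6 ± 30.8 normalized counts (SD, n = 8) in control and 40.1 ± 38.9 (SD, n = 8) in MCU-KO. With only the 1136 exon bases that no other gene covers as its length, an alternative chosen after seeing the data, the step from Gnptg to M6pr was 2.25, and with the longest transcript of each gene as its length it was 0.77. Of the stretches of 50 bases in M6pr transcripts, 6.12% also occur in its pseudogene M6pr-ps. None occurred in other genes for Nagpa and Igf2r, and the antisense RNA Airn overlaps Igf2r outside its exons.

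Between genotypes, Gnptg had the largest shift toward lower counts. In control mice its normalized counts had a lowest value of 2563, a median of 2919 and a highest value of 3497, and in MCU-KO mice 1036, 1786 and 2640.0. Of the MCU-KO mice, 7 of 8 lay below the whole control range, and only MCU-KO mouse 1 lay within it, above the 3 lowest control mice. Control mice averaged 2919.6 ± 332 (SD, n = 8) and MCU-KO mice 1811 ± 616 (SD, n = 8), or 0.62 of the control mean. On the log2 scale edgeR estimated −0.69 (standard error 0.17). The spread was wider in MCU-KO, with a coefficient of variation of 34.0% against 11.4% in control. MCU-KO mice 2, 3, 4 and 5 had 1036, 1479, 1243 and 1312 normalized counts, and mice 1, 6, 7 and 8 had between 2092 and 2640.0. This grouping was made after the values were seen, and no sample label marks it.

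**Figure D2:**
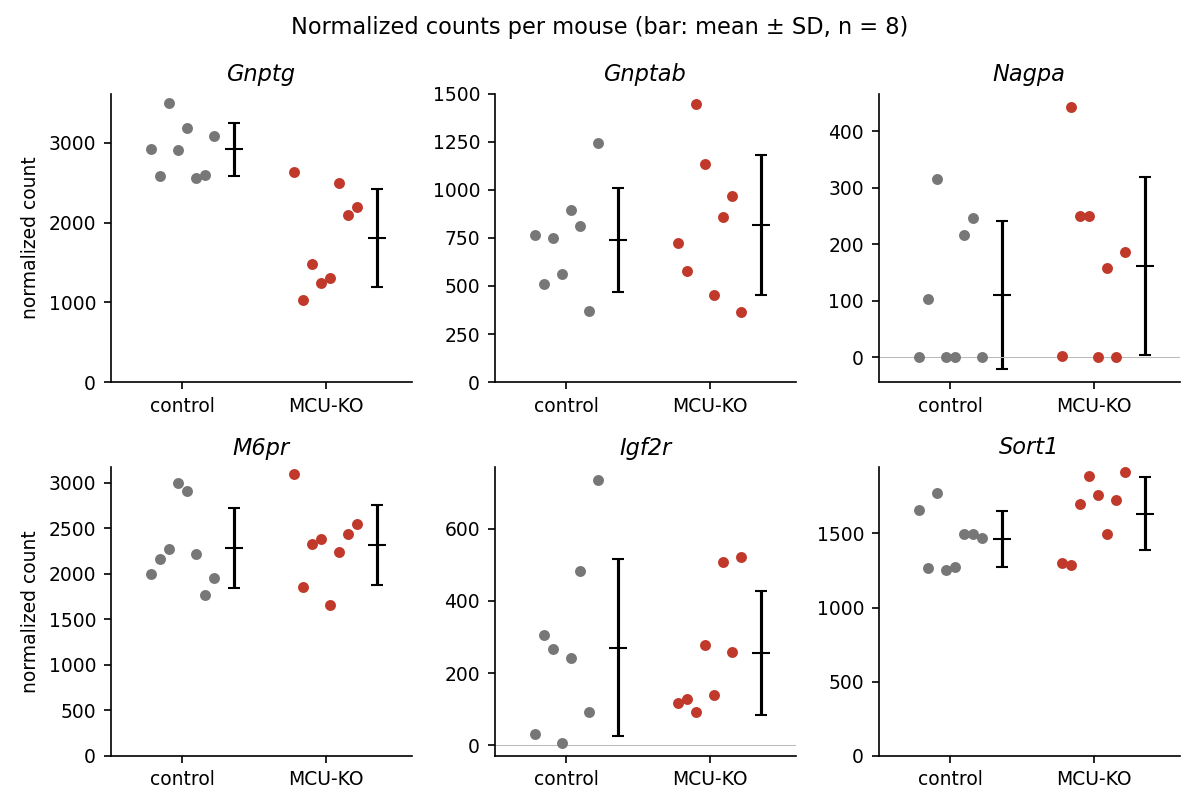
Normalized counts (vertical axes, starting at or just below 0) of the 6 genes in each control mouse (gray) and MCU-KO mouse (red), with mean and SD (n = 8) as a black bar beside each group. For Gnptg, 7 of 8 MCU-KO mice lie below all control mice, whereas for the other genes the groups overlap over most of their range.

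The catalytic subunit gene Gnptab was not found to shift with Gnptg. Its normalized counts ran from 370.0 over a median of 756 to 1245 in control and from 366 over 791 to 1446 in MCU-KO. The groups overlapped almost completely, and the log2 fold change was 0.15 (standard error 0.29). Nagpa was near the limit of detection in many mice. It had no count in 3 of 8 control and 2 of 8 MCU-KO mice, 1 count in a further control mouse and 3 counts in a further MCU-KO mouse, but up to 315 and 443 normalized counts in the others. Its log2 fold change of 0.55 had a standard error of 1.39, with a 95% confidence interval from −2.33 to 3.43, wide enough to hold a change of several fold in either direction, as the counts differed strongly between mice of the same genotype.

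The receptors differed in how well they were measured. M6pr ran from 1766 over a median of 2189 to 2995 normalized counts in control and from 1662 over 2357 to 3101 in MCU-KO. The groups overlapped over nearly the whole range, and the log2 fold change was 0.02 (standard error 0.14). Igf2r ran from 7.84 over a median of 254 to 734 in control and from 93.7 over 199.8 to 520.3 in MCU-KO, and all MCU-KO mice lay within the control range. EdgeR gave a log2 fold change of −0.08 (standard error 0.64) and limma-voom 0.56, so the sign depended on the fit. Sort1 ran from 1255 over a median of 1483 to 1771 in control and from 1287 over 1711 to 1916 in MCU-KO, where 2 mice lay above the control range. EdgeR's estimate for Sort1 was 0.16 on the log2 scale (standard error 0.14).

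Gnptg was thus the one member whose MCU-KO values lay mostly outside the control range. The share of all genes with such values was not computed, so how unusual this is cannot be told. By the quasi-likelihood test of edgeR, adjusted over all genes (Benjamini-Hochberg), 0 of 6 members had an adjusted p under 0.05, and 1, Gnptg, had an unadjusted p under 0.05. Of all genes, 0.178% were called by the adjusted and 4.41% by the unadjusted p, 2.16% of all genes being lower in MCU-KO with an unadjusted p under 0.05. With DESeq2, which the study used, 1 of 6 was called, again Gnptg, where 0.557% of all genes were, and with limma-voom 0 of 6, where 0.218% were. None of the 6 had normalized counts that separated the genotypes, as 0.258% of genes did. Since the members were chosen on this comparison, these counts describe it and add nothing to it. Across the alternatives, including one with the glial markers as a covariate, the log2 fold change of Gnptg lay between −0.77 and −0.68. With each mouse left out in turn it lay between −0.78 and −0.60.

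Within genotypes, no pair of members was found to vary together after adjustment. The log2 CPM of each gene were taken as deviations from the genotype mean, which removes the difference between genotypes. Over the 15 pairs of members, Pearson's r lay between −0.28 and 0.55, and 0 pairs passed after adjustment over the 15 (permutation of mice within genotype, 100000 draws, two-sided), with 1 pair at an unadjusted p under 0.05. With Spearman's rho, 0 pairs passed after adjustment as well. That pair was Gnptg and M6pr, with r = 0.55 (permutation p = 0.0278, adjusted 0.418) and rho = 0.49 (permutation p = 0.0731, adjusted 0.926) over 16 mice. Its r was 0.33 in control mice and 0.70 in MCU-KO mice, and it fell to 0.34 when the 2 mice farthest from the median of Gnptg were left out. Gnptg and Gnptab, the subunits of one enzyme, had r = 0.07 and rho = −0.01 (permutation p = 0.819 and 0.964, adjusted 0.878 and 0.966). For these subunits r was 0.54 in control mice and −0.04 in MCU-KO mice, and whether the genotypes differ in it was not tested.

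Across mice, the 5 genes most like Gnptg were in none of the pathway lists described below. Those lists hold only 122 of the 12390 genes tested, so nothing is read from this absence. Among 5464 other genes with a mean log2 CPM of at least 5, the highest r over the 16 mice, on the same deviations, belonged to Bcl7b (0.76), Apopt1 (0.75), Lsamp (0.75), Nlgn3 (0.74) and Cdc34 (0.74). These encode a chromatin remodeling subunit, a mitochondrial assembly factor, a neuronal adhesion protein, a neuroligin of the synapse and a ubiquitin-conjugating enzyme. In all, 10 genes had an r of 0.7 or more and 7 of −0.7 or less, and 90% of genes lay between −0.41 and 0.42. The libraries share their depth and composition in such correlations, so they are given as a description.

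The rest of the pathway was represented by 5 lists. Of their 122 tested genes, 0 had an adjusted p under 0.05 in edgeR, DESeq2 or limma-voom. Of all genes, 0.178%, 0.557% and 0.218% did in these tools. An unadjusted p under 0.05 in edgeR was found for 4 of the 122, beside 4.41% of all genes. With shares this small, nothing is read from these counts. The median log2 fold change of the 122 listed genes was 0.02, beside 0.00 over all 12390 genes tested. In data simulated with the spread of these libraries, edgeR recovered 3.5% of genes changed 1.5-fold and 34% of genes changed 2-fold. Changes of these sizes could therefore go uncalled. Among coat and retrieval genes, which sort the receptors at the Golgi and return them from endosomes (GGA adaptors, AP-1, clathrin, retromer), 25 of 35 tested had a positive and 10 a negative log2 fold change, with a median of 0.06. The smallest p was that of Vti1a, a SNARE of traffic between Golgi and endosomes. It ran from 353 over a median of 642 to 860.4 normalized counts in control and from 585 over 872 to 1657 in MCU-KO. The groups overlapped, and edgeR gave 0.60 on the log2 scale (standard error 0.24, adjusted p = 1.00).

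Enzymes that carry the tag were the cargo of these receptors. Of 51 tested, 23 had a positive and 28 a negative log2 fold change, with a median of −0.04, and values ranged from −1.32 for Manba, the lysosomal beta-mannosidase, to 1.21 for cathepsin H (Ctsh), both named after their values were seen. The smallest p was that of Ids, the iduronate sulfatase that degrades heparan and dermatan sulfate. Its normalized counts ran from 3080 over a median of 3446 to 5284 in control and from 3240 over 4429 to 8220 in MCU-KO. The groups overlapped, the highest value being that of an MCU-KO mouse, and edgeR estimated 0.53 on the log2 scale (standard error 0.16, adjusted p = 0.661). The 95% confidence interval of the log2 fold change lay within −1 and 1 for 29 of these 51 genes and for 30 of the 35 coat and retrieval genes. The same held for 6417 of all 12390 genes tested.

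**Figure D3:**
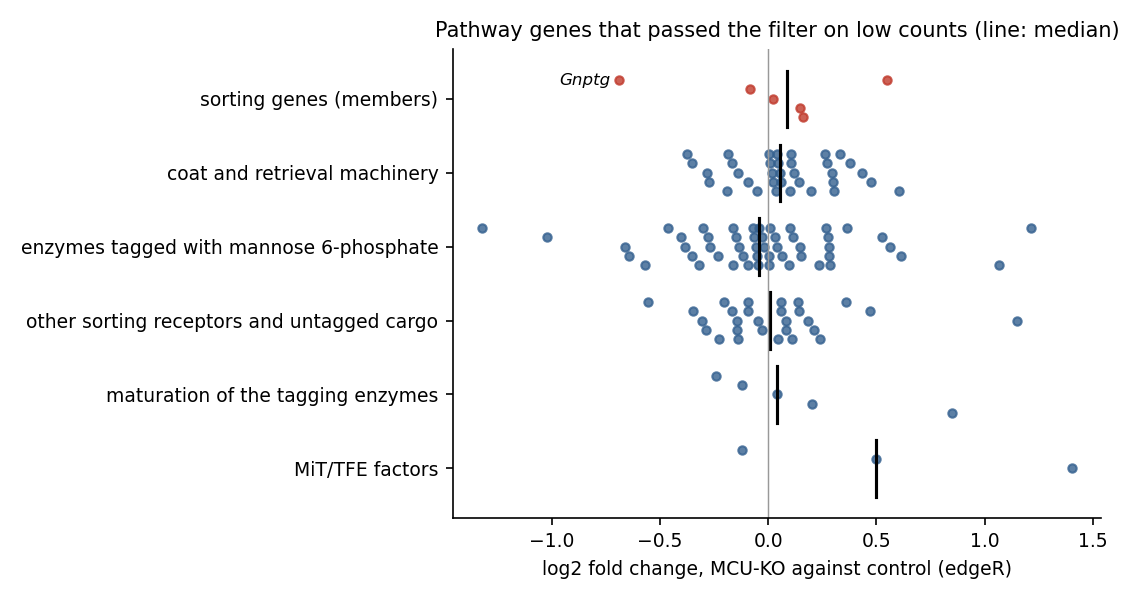
Log2 fold changes between MCU-KO and control (horizontal axis, edgeR) of the 6 members (red) and of the tested genes of the 5 pathway lists (blue), with one point per gene and a line at each median. The medians of the coat, enzyme and other receptor lists lie between −0.04 and 0.06, and Gnptg at −0.69 is the lowest of the members.

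Sorting receptors and cargo that do without the tag, among them the glucocerebrosidase receptor Scarb2, the sortilin relatives and the lysosomal membrane proteins, showed 14 positive and 14 negative log2 fold changes among 28 tested, with a median of 0.01. The smallest p was that of Npc1, the cholesterol transporter of the lysosomal membrane, with a lowest value of 663, a median of 853 and a highest value of 1375 normalized counts in control and 415, 606 and 846 in MCU-KO. The groups overlapped, and the estimate was −0.56 on the log2 scale (edgeR, standard error 0.22, adjusted p = 1.00). Of 5 tested genes that mature or retain the tagging enzymes, such as the site-1 protease Mbtps1 that cleaves the Gnptab precursor, 3 had positive log2 fold changes, and the smallest p was that of Golph3l (0.85, standard error 0.48, adjusted p = 1.00 from edgeR). Golph3l ran from 29.6 over a median of 336 to 778 normalized counts in control and from 253 over 617 to 1211 in MCU-KO. Of the MiT/TFE factors, the transcription factors of lysosomal genes, 3 were tested, and the smallest p was that of Mitf, at 1.40 on the log2 scale (edgeR, standard error 1.15, adjusted p = 1.00). Mitf was low, with between 0 and 129.9 normalized counts in control and between 28.2 and 198 in MCU-KO.

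Gnptg has a close neighbor at either end. On the far side of its start from the gene body lies Tsr3, a gene of ribosomal RNA modification that is transcribed in the opposite direction, and the annotated starts are 46 bases apart, within the 60 bases printed above. Tsr3 had a lowest value of 670.1, a median of 743 and a highest value of 963 normalized counts in control and 779, 1100.4 and 1402 in MCU-KO. Of the MCU-KO mice, 6 of 8 lay above the control range, and the share of all genes with such values was not computed. The estimate for Tsr3 was 0.48 on the log2 scale (edgeR, standard error 0.17, adjusted p = 0.892), of the opposite sign to that of Gnptg, and its r with Gnptg across mice was 0.18. Unkl, the neighbor at the other end, had a log2 fold change of 0.02 (standard error 1.17).

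Within 1 Mb of the Gnptg start, 71 other genes were tested and 0 had an adjusted p under 0.05 in edgeR, whereas DESeq2 called 3 (Rnps1, Rps2 and Npw, named after their values were seen). Without adjustment, 8 of the 71 genes (11.3%) had a p under 0.05, beside 4.41% of all genes tested. Of these 8, 6 were lower and 2 higher in MCU-KO. The median log2 fold change of the window was −0.03. Around the other 5 members, the same windows held between 7 and 33 tested genes with 0 adjusted calls in edgeR or DESeq2, and the unadjusted p was under 0.05 for 1 of 11 genes around Igf2r (9.09%), 1 of 24 around Nagpa (4.17%), 1 of 33 around Sort1 (3.03%), 0 of 9 around Gnptab and 0 of 7 around M6pr. Whether these shares differ from that around Gnptg was not tested. The nearest gene called by edgeR was Atp6v0c, a subunit of the lysosomal proton pump, which starts 1070.4 kb from Gnptg. It ran from 12326 over a median of 15389 to 16282 normalized counts in control and from 4851 over 5761 to 7623 in MCU-KO, so the genotypes did not overlap, and edgeR estimated −1.31 on the log2 scale (standard error 0.10, adjusted p = 1.8e-08). Across mice within genotypes its r with Gnptg was −0.07. Whether the position of Gnptg has a part in its lower counts was not tested.

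**Figure D4:**
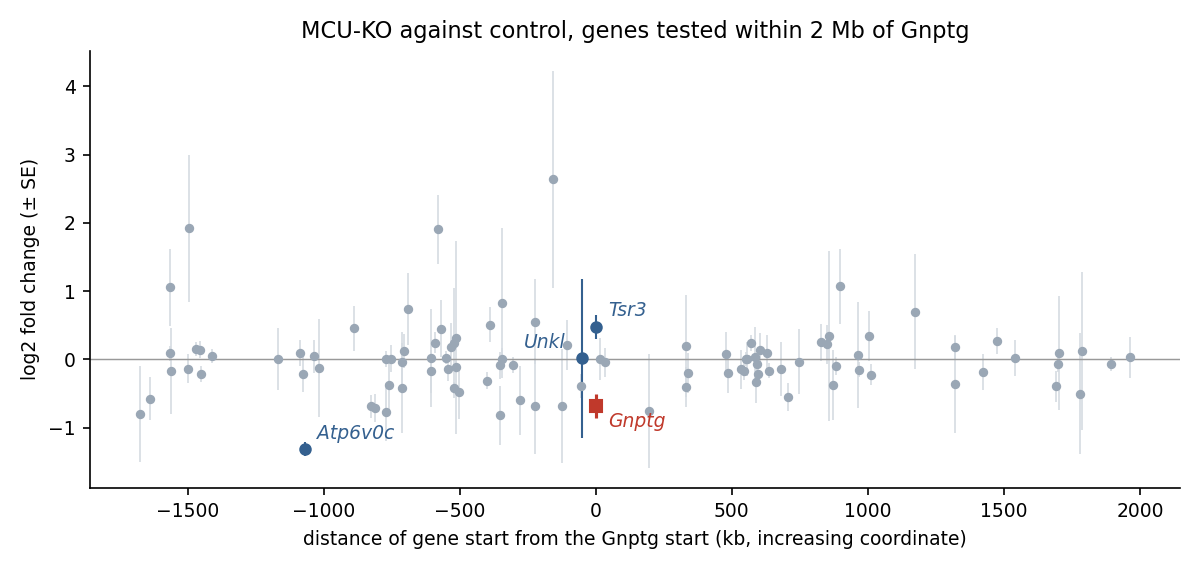
Log2 fold changes with standard errors (vertical axis) of the genes tested within 2 Mb of Gnptg, by the distance of their start from that of Gnptg in kb (horizontal axis). Gnptg (red square, −0.69) and Tsr3 (0.48) lie at the same position with opposite signs, and Atp6v0c (−1.31) lies 1070.4 kb away.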

How the data were processed

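RiboTag RNA-seq libraries of 8 control and 8 MCU-KO mice were grouped by their labels. The authors trimmed reads (cutadapt; the submitters' notes name Trim Galore), used STAR for alignment to mm10 and htseq-count for counting. The deposited values are raw counts, 1 whole number for each gene and mouse. Versions, strand setting and Ensembl release are not given in the sources used here. The total counts per mouse set the precision given above.

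Symbols, coordinates and exon lengths came from GENCODE M21 on GRCm38 (24942 of 25006 identifiers matched). Genotypes were compared with edgeR 4.0.16 in R 4.3.3 (filterByExpr, TMM, glmQLFit, glmQLFTest). The standard errors and confidence intervals given for edgeR were calculated from its log2 fold change and F statistic. The p-values of the 12390 genes tested were adjusted by the Benjamini-Hochberg method and read at 0.05. Log2 CPM used a prior count of 2. Alternatives used DESeq2 1.42.0, limma 3.58.1, other normalizations and filters, covariates, a block for the mouse number and omission of each mouse. The scripts were tested on simulated data. Exact tests used Python 3.11.15 and scipy 1.17.1.

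The members and lists were chosen with earlier results of these data known. Genes named beyond the members were Mcu, Atp6v0c, in each list the genes called or else the one with the smallest p, called or adjacent neighbors of members, and the 5 genes most correlated with Gnptg. Manba, Ctsh, Rnps1, Rps2 and Npw fell outside this rule and were named after their values were seen. Lyset was matched only under its older symbol Tmem251.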

Additional observations from a re-analysis of the deposited data

How the results depend on the processing

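Of the genes called between genotypes, edgeR gave 22, DESeq2 gave 90 and edgeR with the mouse number as a replicate block gave 14, and with each mouse left out the number lay between 18 and 24. DESeq2 called 1 of the 6 members in place of 0 and 3 neighboring genes within 1 Mb in place of 0, and the window of 2 Mb held 1 called gene (Atp6v0c). The other alternatives called 0 members, 0 neighbors and 0 genes of the pathway lists, also with each mouse left out. The log2 fold change of Gnptg was −0.76 with the replicate block. The mouse numbers did not pair the samples: deviations of same-numbered mice correlated between −0.06 and 0.03, and 0 of 8 control mice correlated best with their own number. The log2 fold change of Gnptab lay between −0.02 and 0.30, that of M6pr between −0.04 and 0.09, and that of Igf2r between −0.31 and 0.32 with each mouse left out, so their signs depended on single mice. Nagpa lay between 0.20 and 1.83 across the fits. The 4 steps in level kept their side of the threshold under each alternative and with each control mouse left out.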
